A study of Mus musculus with 87 samples.

Results

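The Hox genes of the 4 mouse clusters were followed through haploid stem cells, preimplantation embryos and the organs of fetuses and newborns. The members were every row whose symbol was Hoxa, Hoxb, Hoxc or Hoxd followed by a number, which gave 39 of the 25277 gene symbols in the count tables. The symbol alone chose them, and no measured value was used. Hoxa held 11 members on chromosome 6 (52155590 to 52260880), Hoxb 10 on chromosome 11 (96194316 to 96368256), Hoxc 9 on chromosome 15 (102921103 to 103036852) and Hoxd 9 on chromosome 2 (74668310 to 74765142), with positions in mm10 from GENCODE M21. The clusters were 105, 174, 116 and 96.8 kb long.

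Hox genes encode homeodomain transcription factors that give cells along the head-to-tail axis their positional identity. Within a cluster, genes with low paralogue numbers are used early and in front, and genes with high numbers later and further back, so that an organ keeps a Hox profile that reflects where it formed. Polycomb proteins hold unused parts of the clusters silent, Trithorax proteins and retinoic acid help to open them, and TALE homeodomain proteins (Pbx, Meis and Pknox) bind DNA together with Hox proteins. DNA methyltransferases (Dnmt) add methyl groups to cytosines that are followed by guanine.

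The study concerned semi-cloned mice from androgenetic haploid embryonic stem cells (AG-haESC), cells that carry a single chromosome set of paternal origin, and asked how such mice develop when the donor cells lack DNA methylation. RNA-seq libraries, 87 in 31 groups, were made with a poly(A) kit or with a full-length amplification kit, and the labels do not say which library used which. The haploid cells were labelled Dnmt WT (3 libraries), Dnmt TKO (3) and Dnmt STOP (2). Embryos were labelled pWT or pIR, with 4 and 4 libraries at the 2-cell stage (2C), 3 and 4 at the morula stage and 4 and 4 at the blastocyst stage. Organs from fetuses at E18.5, late in gestation, came in 2 sets, called batch 1 and batch 2 here. Batch 1 had 2 pWT and 2 pTKO libraries each of brain, heart, kidney, liver and lung. Batch 2 had 4 pWT and 4 pIR libraries each of heart and liver. Organs on postnatal day 1 (P1) had 3 pWT and 2 pIR libraries each of heart, kidney, liver and lung. What the prefix p, IR and STOP stand for, the strain, the sex and what carries each allele are not given in the sources used here, nor is it said which libraries come from the same animal or from separate cultures, so p-values measure only the spread between these libraries, which may be technical.

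Library totals, in megareads (M) assigned to genes, ran from 6.1 to 37.4 M. The lowest belonged to embryos (6.1 to 24.0 M), and organs had 10.7 M or more. Each organ's own marker list was far above its level in the other organs. The heart list, for example, summed to at least 29253 CPM (counts per M counts of the library) in every heart library and to at most 1243 in any other organ. RNA came from whole organs, so fewer cells of a type and less RNA per cell cannot be told apart for any organ value below.

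Control organs differed widely in how much Hox RNA they held. Levels of different genes were compared per length, as reads per kb of exon and per M reads (RPKM). Summed over the 39 genes, P1 pWT kidney reached 920 ± 37.3 RPKM (SD, n = 3) and P1 lung 111 ± 5.64 (n = 3), against 9.13 ± 1.29 in P1 liver (n = 3) and 6.71 ± 0.96 in P1 heart (n = 3). The order of kidney and lung was the same at E18.5 in batch 1, with 604 ± 22.2 RPKM in kidney (n = 2) and 125 ± 4.71 in lung (n = 2). Brain (5.43 ± 6.68, n = 2), heart (3.84 ± 0.49, n = 2) and liver (3.41 ± 0.25, n = 2) lay low at that age, and these 3 did not differ beyond the spread between the brain libraries.

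With detection set at a group mean of 1 CPM, 32 of 39 members were detected in P1 pWT kidney. Those that were not included Hoxb1, from the front end of its cluster, and Hoxa13, Hoxb13, Hoxc12, Hoxc13 and Hoxd13, from the far end. P1 lung had 16 detected members, which included Hoxa2 to Hoxa7, Hoxb2 to Hoxb8, Hoxd8 and Hoxd9 and no Hoxc gene. Liver at P1 had 7 (Hoxa2, Hoxa3, Hoxa5 and Hoxb2 to Hoxb5) and heart 5 (Hoxa3, Hoxb2, Hoxb3, Hoxb4 and Hoxd8). At E18.5 in batch 1, 32 members were detected in kidney, 14 in lung, 5 in brain, 4 in liver and 3 in heart. A threshold of 0.5 CPM raised the P1 kidney count only to 33 and the P1 lung count to 17, but the P1 liver count to 11 and the E18.5 liver count to 7, so the counts in liver depended on the threshold.

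**Figure D1:**
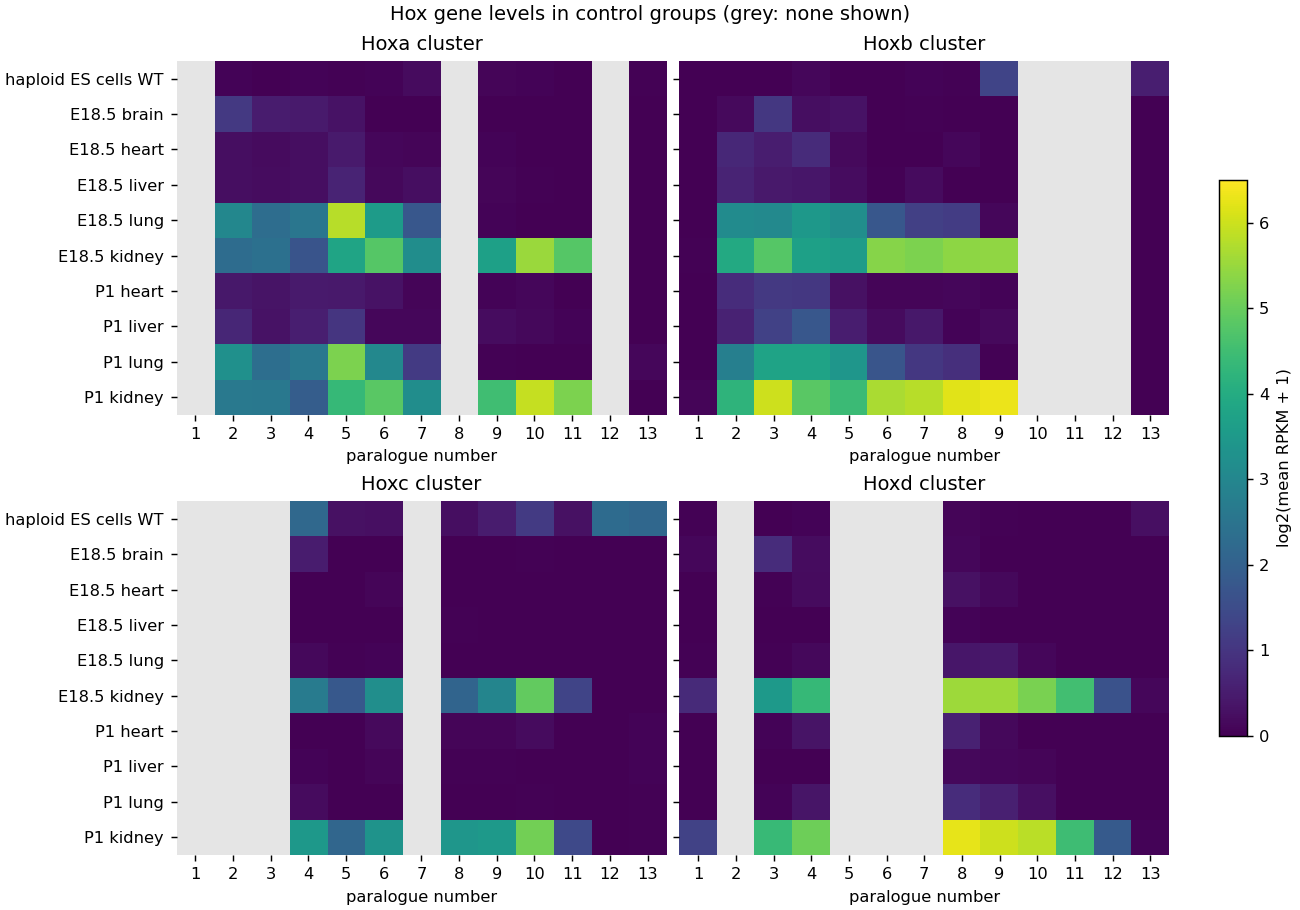
Level of Hox genes in control groups, as log2 of the mean RPKM plus 1 by colour, with the paralogue number across and the group down, in 1 panel per cluster. Kidney rows are bright in all 4 clusters, in Hoxa, Hoxc and Hoxd up to number 10 or 11. Lung rows are bright in Hoxa and Hoxb from 2 to 8, and brighter than kidney rows in Hoxa2, Hoxa4 and Hoxa5. Haploid cells are brightest in Hoxc.

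The paralogue groups behind these sums differed as well. In P1 kidney, groups 9 to 13 made up 41.7 ± 1.4% of summed Hox RPKM, and in P1 lung 0.806 ± 0.28% (SD, n = 3 each). Lung drew 57.5% of its sum from Hoxa and 40.7% from Hoxb, whereas kidney drew 41.7% from Hoxb, 29.6% from Hoxd, 20.3% from Hoxa and 8.49% from Hoxc. In heart and liver at P1, groups 1 to 4 made up 66.2% and 66.9%. By single genes, P1 kidney was led by Hoxb9 (77.7 ± 8.7 RPKM), Hoxd8 (75.5 ± 2.8) and Hoxb8 (72.4 ± 7.0), 3 levels that did not differ beyond their spread. P1 lung was led by Hoxa5, which lung airways need to develop, at 36.1 ± 2.4 RPKM, well above Hoxb3 (12.7 ± 0.84) and Hoxb4 (12.6 ± 1.0), which did not differ from each other beyond their spread. In P1 liver Hoxb4, known for its role in blood stem cells, led at 2.43 ± 0.51 RPKM, and in P1 heart Hoxb3 and Hoxb4 stood level at 1.11 and 1.09. At E18.5, Hoxa5 again led in lung (55.1 RPKM), and in kidney Hoxd9, Hoxd8 and Hoxa10 stood together at 45.9, 45.6 and 45.1.

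Kidney and lung were then compared gene by gene within pWT, with one edgeR quasi-likelihood fit per age over all control organs and Benjamini-Hochberg adjusted p-values. In P1 kidney, 28 of 33 members tested were higher than in lung and 4 were lower, beside 68.2% of all genes called in either direction. A low count in every organ kept a gene out of the fit, so members near 0 in lung entered through kidney and their direction was fixed by that filter. Among the 15 members at 1 CPM or more in both organs, a restriction chosen after the values were seen, 11 were higher in kidney and 3 lower, beside 67.8% of such genes called. The lower genes included Hoxa2, Hoxa4 and Hoxa5, and Hoxa3 between them was not called (log2 difference 0.08, adjusted p = 0.72). In Hoxa5, kidney libraries read 34.5, 39.2 and 36.7 CPM and lung libraries 66.7, 72.8 and 63.8. Every lung library was above every kidney library, and the log2 difference, kidney minus lung, was -1.12 ± 0.16 (SE). Hoxa2, which patterns the branchial arches, read 10.5, 7.67 and 9.18 CPM against 13.6, 16 and 16.5 (-1.0 ± 0.25), and Hoxa4 4.38, 2.87 and 5.90 against 6.91, 7.42 and 9.81 (-1.12 ± 0.37), also without overlap. The Hoxa4 call was lost in 2 of 16 alternative settings.

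Further along Hoxa the order turned. Hoxa9 read 118, 114 and 131 CPM in P1 kidney and 0.0508, 0.358 and 0 in lung. Hoxa10, one of the genes that kidney formation uses, read 180, 193 and 218 CPM in kidney and 0.0508, 0 and 0 in lung. Lung libraries were thus at or near 0 where kidney libraries were among the highest of the cluster. In Hoxb all of Hoxb2 to Hoxb9 were higher in kidney, from a log2 difference of 0.86 ± 0.16 in Hoxb5 to 6.20 ± 0.21 in Hoxb8 and, against 2 lung libraries with a trace and 1 at 0, 11.08 ± 0.37 in Hoxb9. Hoxb3 read 254, 278 and 268 CPM in kidney and 49.8, 55.9 and 56.0 in lung, and Hoxb9 184, 226 and 190 against 0.152, 0.0511 and 0. In Hoxd, Hoxd8 and Hoxd9 were above 1 CPM in both organs and higher in kidney. Hoxc8, Hoxc9, Hoxc11, Hoxd1, Hoxd11 and Hoxd12 were at 0 in all 3 lung libraries.

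**Figure D2:**
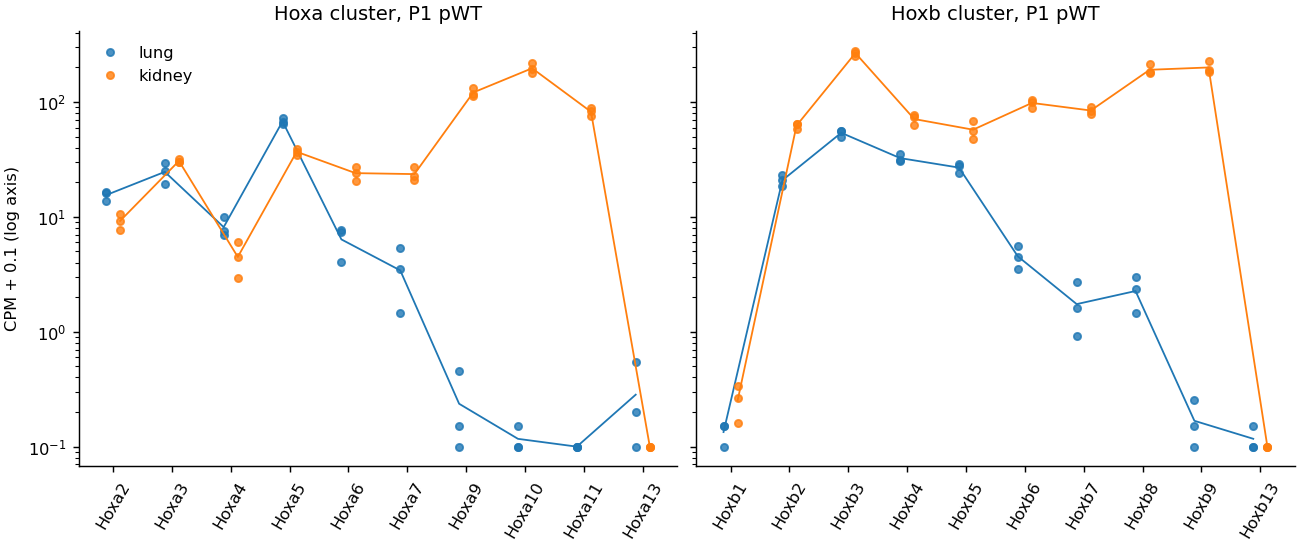
CPM plus 0.1 on a log axis for Hoxa and Hoxb genes in P1 pWT lung and kidney, points being libraries and lines joining means. Lung points lie above kidney points in Hoxa2, Hoxa4 and Hoxa5, and fall away from Hoxa9 and Hoxb9 on, where kidney stays above 100 CPM in Hoxa9, Hoxa10 and Hoxb9.

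At E18.5 in batch 1, 23 of 33 tested members were higher in kidney than in lung and 2 were lower, beside 35.3% of all genes called. Of these, 13 were at 1 CPM or more in both organs, and 4 of the 13 (Hoxa7, Hoxb6, Hoxb7 and Hoxb8) were higher in kidney and 1 lower, beside 33.6% of such genes called. Hoxa5 was again lower in kidney (log2 difference -2.29 ± 0.60, adjusted p = 0.021), by edgeR with 2 libraries a group. Hoxa5 read 26.9 and 21.9 CPM in kidney and 104 and 103 in lung, and Hoxa10 153 and 142 in kidney and 0 in both lung libraries. The Hoxa5 call was lost in 4 of 14 alternative settings. The other organ pairs were read in the same way, over members at 1 CPM or more in both organs. At P1, kidney was higher than heart in 5 of 5 such members (65.9% of such genes called, 65.6% of all tested) and higher than liver in 7 of 7 (73.2% and 73.7%). Lung was higher than P1 heart in 4 of 5, Hoxd8 not being called (69.9% and 67.8%), and higher than P1 liver in 7 of 7 (78.3% and 76.7%). Liver was higher than heart in Hoxb3 and Hoxb4, 2 of 4 (75.4% and 72.9%). At E18.5, kidney was higher than heart in 3 of 3 (40.4% and 40.0%), than liver in 4 of 4 (44.0% and 45.9%) and than brain in 3 of 5 (57.9% and 58.2%). Lung was higher than heart in 3 of 3 (49.4% and 46.6%), than liver in 4 of 4 (54.2% and 53.8%) and than brain in 3 of 3 (57.1% and 58.5%). No such member was called between E18.5 heart and liver (2 members, 51.0% and 49.4%), brain and heart (1, 67.4% and 64.9%) or brain and liver (2, 68.4% and 69.8%).

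The haploid stem cells had a small and different Hox profile. Summed Hox RPKM was 17.4 ± 0.29 in WT (SD, n = 3), and 76.5% of it came from Hoxc. The leading WT genes were Hoxc12 at 3.80 RPKM, Hoxc4 at 3.61 and Hoxc13 at 3.54, of which Hoxc12 was at 0 in every fetal and newborn organ library. WT cells had 7 detected members, which included Hoxb9, Hoxb13, Hoxc4, Hoxc10, Hoxc12 and Hoxc13, TKO cells 13 and STOP cells 14. The TKO count rose to 20 at a threshold of 0.5 CPM. Summed RPKM was 32.0 ± 1.43 in TKO (n = 3) and 28.5 ± 1.92 in STOP (n = 2).

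In TKO cells 8 of 21 tested Hox genes were higher than in WT and none was lower, beside 14.6% of all genes called (9.83% higher and 4.72% lower). In STOP cells 8 of 21 were higher and none lower, beside 23.1% of all genes called (13.8% higher and 9.37% lower). The median log2 difference of the 21 was 1.01 in TKO, against 0.01 over all genes tested, and 1.15 in STOP, against 0.01. Both comparisons use the same 3 WT libraries, so they are not independent of each other. The 18 members not tested were too low in these cells for the filter on low counts. Hoxa9, Hoxa10, Hoxd1, Hoxd8 and Hoxd9 had under 10 reads in every WT library and entered the fit through the mutant libraries. Their direction was fixed by that filter. The 8 higher and none lower, and the medians, are therefore no test of a direction across the members. These counts rest on few libraries. The TKO count was 5 without WT replicate 1, WT replicate 2 or WT replicate 3. The STOP count was 5 without WT replicate 1 or 2, 4 without WT replicate 3, 4 without STOP replicate 1 and 1 without STOP replicate 2, where Hoxa10 alone was called.

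The promoters of 3 genes that rose in both mutant lines are shown because the enzyme that the labels name acts on CG pairs. That of Hoxa5, the leading lung gene, is added, though Hoxa5 was too low in the haploid cells to be tested. Each is the 250 bases before a RefSeq transcription start in GRCm38.p6, written along the gene's own strand with CG pairs in capitals: chr6:52240855-52241104 on the minus strand for Hoxa10, chr2:74704365-74704614 on the plus strand for Hoxd8, chr2:74667975-74668224 on the plus strand for Hoxd13 and chr6:52204588-52204837 on the minus strand for Hoxa5.
Hoxa10: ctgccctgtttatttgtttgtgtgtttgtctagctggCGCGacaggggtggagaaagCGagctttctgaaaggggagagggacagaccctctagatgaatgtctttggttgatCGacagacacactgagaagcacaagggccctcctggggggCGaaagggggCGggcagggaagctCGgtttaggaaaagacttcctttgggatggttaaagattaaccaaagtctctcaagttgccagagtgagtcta
Hoxd8: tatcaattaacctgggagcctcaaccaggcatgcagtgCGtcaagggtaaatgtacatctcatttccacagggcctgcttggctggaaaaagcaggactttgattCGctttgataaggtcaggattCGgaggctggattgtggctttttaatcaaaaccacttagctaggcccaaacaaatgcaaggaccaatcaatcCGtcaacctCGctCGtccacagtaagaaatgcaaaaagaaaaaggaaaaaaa
Hoxd13: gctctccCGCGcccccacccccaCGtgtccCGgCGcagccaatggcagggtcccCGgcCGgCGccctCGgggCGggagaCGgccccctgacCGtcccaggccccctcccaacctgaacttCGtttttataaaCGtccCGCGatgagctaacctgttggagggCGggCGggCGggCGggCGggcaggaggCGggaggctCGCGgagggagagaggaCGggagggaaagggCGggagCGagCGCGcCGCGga
Hoxa5: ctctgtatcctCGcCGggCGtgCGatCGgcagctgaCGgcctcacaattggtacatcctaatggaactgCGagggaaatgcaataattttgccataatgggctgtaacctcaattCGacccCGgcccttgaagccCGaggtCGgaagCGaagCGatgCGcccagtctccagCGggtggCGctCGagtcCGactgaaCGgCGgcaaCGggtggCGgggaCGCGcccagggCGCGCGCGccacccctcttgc
CG was the only motif searched, and it reads the same on both strands. These windows held 7, 6, 31 and 28 CG pairs. Over 32851 RefSeq promoter windows of this length the median was 6, and 92.1% held at least 1. The 24 windows that matched 22 Hox genes held 2 to 35, with a median of 12.5. Hoxa10 has a second RefSeq start, whose window (chr6:52234940-52235189) held 20 CG pairs and is not printed. The counts describe the sequence, and methylation at these sites was not analysed here.

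In the haploid lines Hoxa10, Hoxd8, Hoxd9 and Hoxd13 were higher in both mutants. Hoxa10 (chromosome 6, 52231197 to 52240854), a posterior gene used in kidney and uterus, read 0.179, 0.141 and 0.148 CPM in WT, 1.82, 2.80 and 2.78 in TKO, and 1.64 and 3.79 in STOP. No mutant library overlapped WT, and the log2 difference was 3.91 ± 0.49 in TKO (edgeR, adjusted p = 0.0027) and 3.98 ± 0.51 in STOP (adjusted p = 0.0036). Both Hoxa10 calls held in all 13 alternative settings run. Hoxd9 (chromosome 2, 74697727 to 74700208) read 0.0596, 0.0472 and 0.0984 CPM in WT, 2.83, 1.14 and 0.941 in TKO, and 1.27 and 1.46 in STOP. Behind the WT values stood 1, 1 and 2 reads, and the ratio of pooled counts per depth was 23.0 in TKO (95% interval 8.71 to 86.0, counting error only) and 20 in STOP (7.36 to 76.0). Its log2 differences were 4.39 ± 0.63 and 4.10 ± 0.67, with adjusted p-values of 0.0043 and 0.0073.

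Hoxd8 (chromosome 2, 74704615 to 74707933) read 0.179, 0.0943 and 0.246 CPM in WT, 1.77, 1.28 and 0.90 in TKO, and 1.48 and 1.92 in STOP, with log2 differences of 2.83 ± 0.47 and 3.16 ± 0.49 (adjusted p = 0.0066 and 0.0062). Hoxd13 (chromosome 2, 74668310 to 74671599), the gene that patterns digits, read 0.775, 0.472 and 0.344 CPM in WT, 3.89, 2.61 and 2.58 in TKO, and 2.92 and 3.33 in STOP (2.47 ± 0.35 and 2.47 ± 0.38, adjusted p = 0.0043 and 0.0060). In both genes every mutant library lay above every WT library. Hoxa9 read 0.358, 0.283 and 0.344 CPM in WT, 1.31, 1.38 and 0.654 in TKO, and 1.27 and 1.92 in STOP (1.68 ± 0.42, adjusted p = 0.032, and 2.17 ± 0.45, adjusted p = 0.015). The Hoxa9 call was lost in 7 of 13 alternative settings in TKO and 5 of 13 in STOP, with adjusted p up to 0.11 and 0.14. Hoxd1, the gene at the front end of Hoxd, had only 3 reads in all of WT. It read 0.119, 0 and 0.0492 CPM there, 0.909, 0.713 and 0.204 in TKO, and 0.477 and 0.505 in STOP, and its ratios of pooled counts were 11.3 (3.59 to 57.3) and 9.55 (2.81 to 50.4). Its log2 differences were 3.32 ± 0.86 and 3.0 ± 0.94. Its edgeR adjusted p-values were 0.035 and 0.049, and the calls were lost in 7 and 8 of 12 alternative settings.

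In Hoxc, the cluster that was already on in WT, the called genes were Hoxc12 and Hoxc13, at its posterior end. Hoxc13, a regulator of hair and nail keratins, read 8.94, 9.10 and 8.07 CPM in WT, 17.0, 17.6 and 19.7 in TKO, and 15.4 and 16.1 in STOP, without overlap. It rose by 1.01 ± 0.14 on the log2 scale in TKO (adjusted p = 0.0043) and 0.75 ± 0.16 in STOP (adjusted p = 0.015). Hoxc12 read 3.99, 3.63 and 4.13 CPM in WT, 8.43, 7.17 and 7.12 in TKO, and 6.47 and 5.40 in STOP, and was called in TKO (0.90 ± 0.18, adjusted p = 0.015) and not in STOP (0.50 ± 0.20, adjusted p = 0.10). Hoxc4, the last gene at the other end, read 8.88, 9.86 and 9.10 CPM in WT, 7.27, 14.3 and 6.91 in TKO, and 7.84 and 8.73 in STOP. TKO libraries lay on both sides of the WT range and Hoxc4 was called in neither line (log2 differences -0.02 and -0.26).

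Whether TKO and STOP differ in Hoxc12 was not tested. Hoxb9 read 4.29, 2.97 and 4.62 CPM in WT, 3.13, 5.23 and 14.4 in TKO, and 4.61 and 3.43 in STOP. A single TKO library was high, and no Hoxb gene was called in either line.

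**Figure D3:**
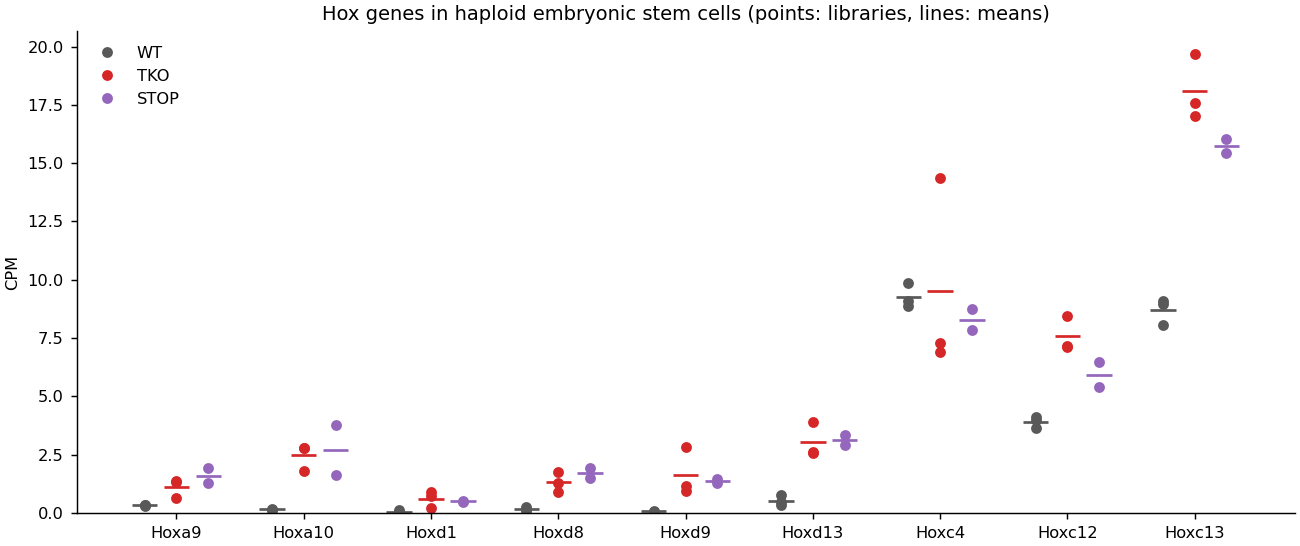
CPM of 9 Hox genes in haploid stem cells, points being libraries and short lines means, with WT, TKO and STOP side by side. TKO and STOP points of Hoxa9, Hoxa10, Hoxd8, Hoxd9 and Hoxd13 sit above WT, Hoxc13 goes from 8.07 to 9.10 CPM in WT to 15.4 or more in both lines, and Hoxc4 overlaps.

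Genes around the Hox network were read in the same fits. Of the ParaHox and flanking homeobox genes, relatives of the Hox genes that include activators of the clusters, 4 of 8 were tested. Of these, 3 were lower in TKO and 2 in STOP, beside 4.72% and 9.37% of all genes called lower. Cdx4, 1 of the 3, was close to the filter on low counts, at a mean of 0.767 CPM in WT and 0.173 in TKO. Cdx1 read 72.3, 66.1 and 69.6 CPM in WT, 18, 20.5 and 16.1 in TKO, and 23.9 and 21.3 in STOP (log2 -1.98 ± 0.11 and -1.72 ± 0.13, adjusted p = 5.7e-05 and 0.00054). Cdx1 thus fell without overlap in the same libraries in which posterior Hox genes rose. Halr1, a long RNA from beside Hoxa, read 13.4, 12.9 and 14.4 CPM in WT, 4.24, 4.94 and 6.5 in TKO, and 5.57 and 6.51 in STOP (-1.41 ± 0.21 and -1.27 ± 0.25), and was the 1 called of 4 tested RNAs named for the clusters. Of 9 cofactors only Meis2 was called, at a mean of 36.5 CPM in WT, 7.23 in TKO and 4.62 in STOP (-2.32 ± 0.62 and -3.08 ± 0.76). Of 23 Polycomb and Trithorax genes 4 rose in TKO and none fell, and 3 rose and 5 fell in STOP. Of 12 tested retinoic acid genes 2 rose and 1 fell in TKO, and 3 rose and 2 fell in STOP. Beside all of these lists stand the 14.6% and 23.1% of all genes called in TKO and STOP. Rarg, a retinoic acid receptor gene, fell from a mean of 79.9 CPM to 27.4 and 26.7, while the binding proteins Crabp1 and Crabp2 rose from 0.918 and 0.771 CPM to 6.21 and 6.49 in TKO. Summed markers of forebrain moved along with these groups, at 0.660 to 1.25 CPM in WT, 3.84 to 9.14 in TKO and 6.84 to 7.62 in STOP, with Emx2 at 0 in all 3 groups. Hindbrain and spinal cord markers summed to 3.11 to 4.17, 10.2 to 22.1 and 16.7 to 17.0 CPM. The part of cells with such markers in the Hox values was not tested.

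In preimplantation embryos Hox RNA varied from library to library and was low at the morula and blastocyst stages. The columns of the 11 pWT embryo libraries carry a code that does not state the group. They were placed in pWT only by their stage and number, because the pIR samples of each stage have columns in their own name, and each embryo value given for pWT depends on that inference. Only 3 members could be tested at 2C, 2 at the morula stage and 4 at the blastocyst stage, and edgeR called none. At an unadjusted p under 0.05 there was 1 at 2C and none later, and DESeq2 called none. Over all genes, 0.0% were called at 2C, 0.136% in morulae and 10.6% in blastocysts. Hoxa7, a trunk patterning gene, was the highest member at 2C with 37.8, 21.7, 55.2 and 31.9 CPM in pWT and 27.0, 34.3, 5.70 and 30.3 in pIR, and the groups overlapped. Hoxa9 ran from 0 to 84.6 CPM among the 4 pWT libraries (6.61, 0, 84.6 and 24.6) and read 9.45, 16.2, 1.30 and 0 in pIR. Hoxb2 read 1.56, 6.98, 2.71 and 27.0 CPM in pWT and 1.35, 0.133, 1.30 and 0 in pIR, and was the 1 with a low unadjusted p (0.044, adjusted p = 1.0). Embryo libraries of the 2C pIR group were also the shallowest, at 6.1 to 7.5 M reads against 10.9 to 24.0 M in pWT, and the part of depth was not tested.

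After 2C, summed Hox RPKM in pWT went from 29.9 ± 19.2 (n = 4) to 2.46 ± 1.62 in morulae (n = 3) and 5.59 ± 1.22 in blastocysts (n = 4). Hoxb13, the most posterior Hoxb gene, read 1.81, 2.46 and 1.76 CPM in pWT morulae and 1.35, 2.61, 1.82 and 2.16 in pIR morulae. The ranges overlapped almost completely. Hoxd8 read 2.55, 5.02, 1.97 and 0.579 CPM in pWT blastocysts and 1.99, 2.66, 0.804 and 5.62 in pIR, again with overlap.

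In the organs of pTKO fetuses at E18.5, edgeR called no Hox gene in any of 5 organs. The background differed among them, at 1.75% of all genes called in brain, 26.8% in heart and 0.0% in kidney, liver and lung. Tested members numbered 10 in brain, 7 in heart, 33 in kidney, 9 in liver and 17 in lung. At an unadjusted p under 0.05 there were 2, 0, 13, 0 and 1. DESeq2 called 6 in kidney and none in the other 4 organs. The shares of all genes at an unadjusted p under 0.05, or called by DESeq2, are not given here or for the P1 organs. Such counts are thus no measure of an excess among Hox genes. In heart, where many other genes were called, Hoxb3 was the highest Hox gene in pTKO, at 1.53 and 2.16 CPM in pWT and 3.23 and 3.88 in pTKO.

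All 13 kidney genes with a low unadjusted p were higher in pTKO, by 0.30 to 1.12 on the log2 scale. They came from all 4 clusters and from paralogue numbers 3 to 9. How many of all genes met that criterion is not given, so whether Hox genes stand out was not tested. Hoxc4 (chromosome 15, 103018934 to 103036852) read 14.2 and 14 CPM in pWT and 32.4 and 30.8 in pTKO (1.12 ± 0.15, adjusted p = 0.35). Hoxa9 read 64.6 and 68.3 CPM against 116 and 125 (0.81 ± 0.12), and Hoxd3 46.1 and 41.2 against 83.3 and 71.4 (0.78 ± 0.14). In each of these the pTKO libraries were both above pWT, but 0 of 16595 genes passed the adjusted threshold here. Hoxb9, in contrast, read 110 and 107 CPM in pWT and 111 and 111 in pTKO, which is a difference of the size of the spread. DESeq2 called Hoxa9, Hoxb5, Hoxc4, Hoxc8, Hoxd3 and Hoxd4. Leaving out pWT replicate 1 gave 12 calls and leaving out pWT replicate 2 gave 7, by edgeR with the lone pWT library assumed to vary like the pTKO group. Kidney markers summed to 2276 to 2937 CPM in pWT and 1921 to 1953 in pTKO, stroma and smooth muscle markers to 3844 to 3921 and 3041 to 3292, and gonad and ureter markers to 21.3 to 45.1 and 61.3 to 65.6. All 3 lists moved with the groups without overlap, and their part in the Hox values was not tested.

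In E18.5 brain the Hox values varied widely within each group. The first pWT library read 8.87 CPM of Hoxb3, a hindbrain gene, and the second 0.238. The pTKO libraries read 14.4 and 4.88. Hoxa5 read 0.933 and 0 CPM in pWT and 14.2 and 0.185 in pTKO, and Hoxb5 1.40 and 0 against 15.5 and 0.185. Hoxb8, which is used further back, was at 0 in both pWT libraries and at 3.11 and 0.185 CPM in pTKO. For Hoxb3, Hoxa5 and Hoxb5, 1 of the 2 libraries in each group had most of the CPM. Leaving out pWT replicate 1 gave 5 called genes and leaving out pTKO replicate 2 gave 11, against 0 with all 4 libraries. Hindbrain and spinal cord markers summed to 81.2 to 87 CPM in pWT, with Mnx1 at 0, and 93.7 to 99.5 in pTKO, and how much hindbrain or cord tissue each dissection held was not tested.

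In E18.5 lung, Hoxa5 read 104 and 103 CPM in pWT and 128 and 84.0 in pTKO, a spread that covered the control value. Its neighbour Hoxa6 read 8.79 and 10.3 CPM against 3.24 and 4.50 (-1.24 ± 0.29, adjusted p = 0.80). It was the 1 lung member with an unadjusted p under 0.05. Leaving out pTKO replicate 1 gave 2 called members, both lower, and leaving out pTKO replicate 2 gave 5, of which 4 were higher. In batch 2, neither pIR heart (6 tested, 0.0137% of all genes called) nor pIR liver (8 tested, 0.0% called) had a called Hox gene by edgeR or DESeq2, and none had an unadjusted p under 0.05. Hoxb3 read 2.55, 1.80, 2.1 and 1.83 CPM in pWT heart and 2.39, 1.79, 2.45 and 3.66 in pIR heart. The ranges overlapped in all but the highest pIR library.

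Fitted organ by organ, edgeR called Hox genes in 1 organ group only, the P1 pIR kidneys. There 3 of 33 tested members were lower than in pWT and none was higher, beside 10.6% of all genes called (7.58% higher and 3.06% lower), and 8 members had an unadjusted p under 0.05. Counted in either direction, calls were thus no more frequent among members than among all genes. With all P1 libraries in one fit, kidney had 0 called members and heart 4. The 3 genes called in the kidney fit all lie in Hoxd. Hoxd4 (chromosome 2, 74711929 to 74729160), a gene of neck vertebrae and hindbrain, read 97.5, 107 and 85.8 CPM in pWT and 51.4 and 48.1 in pIR (log2 -0.91 ± 0.13, edgeR adjusted p = 0.0087). Hoxd3 (chromosome 2, 74711927 to 74748442), which overlaps it, read 81.7, 94.5 and 72.7 CPM in pWT and 57.8 and 37.2 in pIR (-0.76 ± 0.20, adjusted p = 0.047). Hoxd12 (chromosome 2, 74675013 to 74677705), a limb gene at the other end of the cluster, read 5.92, 7.02 and 6.88 CPM in pWT and 3.13 and 2.33 in pIR (-1.23 ± 0.25, adjusted p = 0.024). In all 3 genes both pIR libraries lay under all 3 pWT libraries.

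Hoxd1 lay in the same direction at 2.59, 3.16 and 2.19 CPM in pWT and 1.11 and 1.05 in pIR, also without overlap, but missed the threshold (-1.24 ± 0.34, adjusted p = 0.057). Between these genes Hoxd8, Hoxd9 and Hoxd11 overlapped between the groups, with log2 differences of -0.03, -0.12 and -0.03, and Hoxd10 did not overlap but was not called (-0.27, adjusted p = 0.15). Haglr, a long RNA that overlaps Hoxd3 exons, read 28.1, 30.4 and 21.6 CPM in pWT and 12.9 and 9.97 in pIR (-1.18 ± 0.20, adjusted p = 0.015). Of the exon bases of Hoxd3, 62.8% are shared with Haglr, Hoxd4 or other transcripts, and of those of Hoxd4 52.3%. Without a stated strand setting, reads of these genes cannot be fully told apart.

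The count of 3 in pIR kidney was 0 without pWT replicate 1 and 1 (Hoxd4) without pIR replicate 2, and 0 when all 20 P1 libraries entered one fit. Kidney markers summed to 1500 to 1819 CPM in pWT and 2487 to 2814 in pIR, stroma and smooth muscle markers to 2440 to 2878 and 3709 to 3956, and gonad and ureter markers to 53.2 to 98.2 and 27.8 to 47.4. These lists moved with the groups without overlap, and their part in the Hoxd values was not tested. Of 16 tested retinoic acid genes, those called in pIR kidney included Crabp1 and Dhrs3, which both rose.

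**Figure D4:**
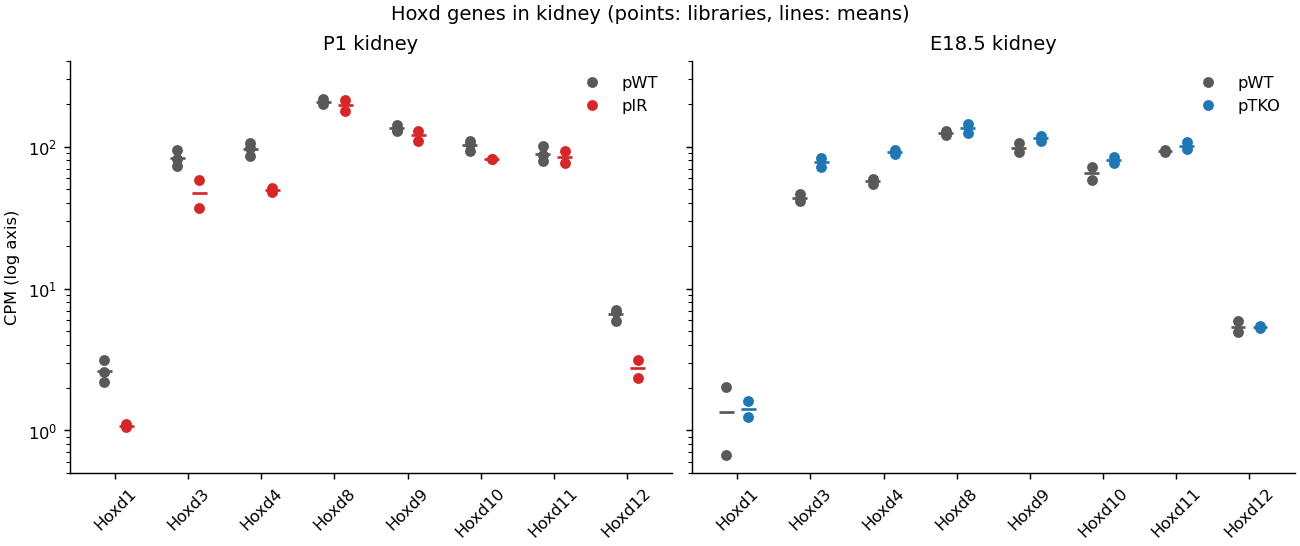
CPM on a log axis of Hoxd genes in P1 kidney (pWT and pIR) and in E18.5 kidney of batch 1 (pWT and pTKO), points being libraries and short lines means. In P1 pIR kidney, Hoxd1, Hoxd3, Hoxd4 and Hoxd12 lie under pWT while Hoxd8, Hoxd9 and Hoxd11 overlap. In E18.5 pTKO kidney, Hoxd3 and Hoxd4 lie above pWT, which DESeq2 called and edgeR did not.

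Hoxb in the newborn pIR organs was looked at on its own, because genes beside it on chromosome 11 were higher there. None of the Hoxb genes was called in heart (4 tested), kidney (8), liver (4) or lung (7), beside 2.32%, 10.6%, 39.2% and 2.6% of all genes called. In kidney, where Hoxb is highest, Hoxb3 read 254, 278 and 268 CPM in pWT and 311 and 246 in pIR, on both sides of the control range (0.11 ± 0.12, adjusted p = 0.57). Hoxb4, Hoxb8 and Hoxb9 had log2 differences of 0.12, 0.00 and -0.16. In liver, Hoxb4 read 7.65, 5.91 and 5.11 CPM in pWT and 3.06 and 3.24 in pIR, without overlap and not called (-0.63 ± 0.27, adjusted p = 0.082). In lung, Hoxb2 read 18.7, 22.9 and 20.7 CPM in pWT and 30.0 and 24.7 in pIR, also without overlap and not called (0.36 ± 0.12, adjusted p = 0.15). Across all 39 members, DESeq2 called none in pIR liver or lung and 1 in pIR heart, and an unadjusted p under 0.05 was found for 2 members in heart, 1 in liver and 2 in lung.

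The flanks were split by the end of the cluster they face, a split chosen after the values were seen. Of the 25 genes within 1 Mb on the side of Hoxb13, edgeR called 8 of 18 tested higher and none lower in heart, 10 of 18 higher and none lower in kidney, 11 of 17 higher and 3 lower in liver, and 7 of 20 higher and none lower in lung. Their median log2 differences were 0.79, 0.72, 0.54 and 0.51. The Hoxb genes themselves had medians of 0.25, -0.02, -0.23 and 0.13. The 27 genes on the side of Hoxb1 had medians of 0.04, 0.00, -0.04 and 0.01, with none called in heart or lung, 3 higher and 2 lower in kidney and 5 higher and 2 lower in liver. Ube2z, a ubiquitin-conjugating enzyme gene 129 kb from Hoxb13, was higher in all 4 organs (0.87, 0.43, 1.11 and 0.51), and so was Kat7, a histone acetyltransferase gene near the far edge of the window (0.93, 0.96, 0.79 and 0.67). Atp5g1, an ATP synthase subunit gene that is nearer still at 119 kb, was higher in kidney and liver (0.77 and 0.93) and not called in heart or lung (-0.07 and 0.57). In pIR heart and liver of E18.5 batch 2, none of the genes on either side was called, and the medians on the Hoxb13 side were 0.03 and -0.01. Around the other clusters at P1, no gene was higher in heart or lung, and in kidney 0 of 11 around Hoxa, 2 of 37 around Hoxc and 0 of 8 around Hoxd. In liver, 2 of 8 around Hoxa were higher and 2 lower, 9 of 37 around Hoxc higher and 9 lower, and none of 7 around Hoxd higher and 3 lower.

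**Figure D5:**
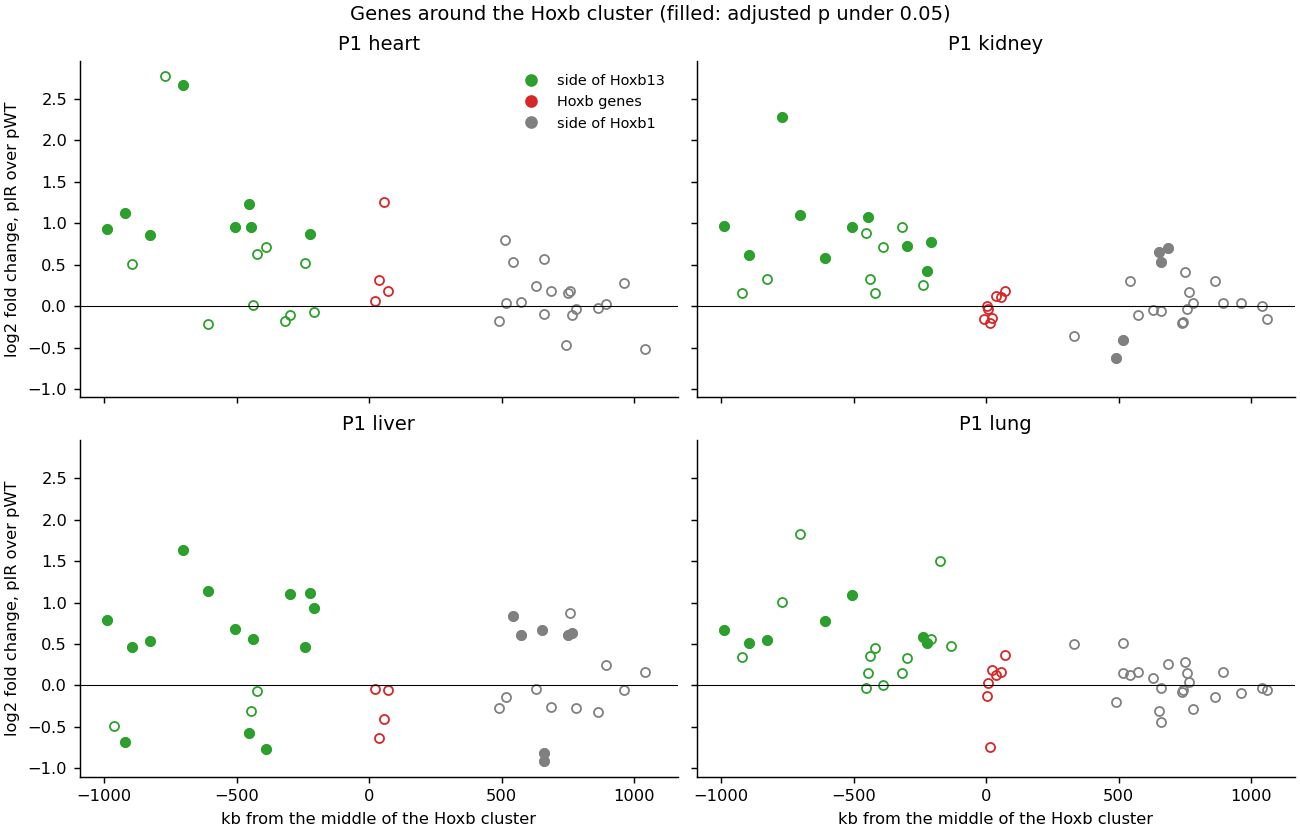
Log2 fold change of pIR over pWT against distance in kb from the middle of the Hoxb cluster in 4 P1 organs, 1 point per tested gene, filled where the adjusted p was under 0.05. Points on the side of Hoxb13 (negative distances) lie mostly above 0 with medians from 0.51 to 0.79, while points on the side of Hoxb1 scatter around 0. Hoxb points lie on both sides of 0 in kidney and lung, all above 0 in heart (median 0.25) and all below in liver (median -0.23).

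Hoxb3 shares 52.9% of its exon bases with Hoxb3os, an RNA named for the cluster. Without a stated strand setting, reads of these genes cannot be fully told apart, here and wherever Hoxb3 is given. Of the 4 newborn organs, Hoxb3 had its widest pIR difference in heart. There it read 4.96, 4.66 and 4.49 CPM in pWT and 7.42 and 16.6 in pIR (1.25 ± 0.33, adjusted p = 0.080), with no overlap and a wide gap between the 2 pIR libraries. Hoxa2 did likewise at 0.431, 0.712 and 0.660 CPM in pWT and 1.39 and 3.12 in pIR (1.78 ± 0.49, adjusted p = 0.088). A test of whether the pIR effect differs among the 4 organs, one F test on the interaction terms in edgeR, called Hoxb3 (adjusted p = 0.016), Hoxc5 (0.023), Hoxa2 (0.031) and Hoxd3 (0.045), beside 25.3% of all genes called. Calls were less frequent among the tested members than among all genes. For Hoxb3 the 4 effects were 1.25 in heart, 0.11 in kidney, -0.41 in liver and 0.16 in lung. The number called was 0 without pIR heart replicate 2 and 2 without pWT heart replicate 3, pWT kidney replicate 1, pIR kidney replicate 2, pIR liver replicate 2 or pIR lung replicate 2. In the heart test alone, 2 members (Hoxa2 and Hoxb3) were called without pIR replicate 1, 1 without the filter on low counts, and 4 when all P1 libraries entered one fit. Stroma and smooth muscle markers summed to 2753 to 4219 CPM in pWT heart and 5160 to 7831 in pIR heart, without overlap, and their part in the Hoxb3 value was not tested. The same interaction test called no Hox gene among the 5 E18.5 organs of batch 1 (0.0106% of all genes called) or between heart and liver of batch 2 (0.00622%).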

How the data were processed

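The authors deposited 10 tables of raw read counts per gene symbol, and these counts, for 25277 symbols, were used as deposited. The tools that the submitters' processing notes list are Trim Galore 0.6.6 for trimming, HISAT2 2.1.0 for alignment, featureCounts 1.6.4 for counting and DESeq2, and the build listed is mm10. The gene annotation used for counting, the strand setting and the treatment of reads with several matches are not given in the sources used here. Embryo columns with an uninformative name, 11 in all, match no label in full. They were inferred to be pWT from their stage and number, since the pIR samples have columns of their own, and no label or header states it.

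From the counts, CPM was computed with library totals and RPKM with the union exon length of GENCODE M21. Differences were tested with edgeR 4.0.16 (quasi-likelihood F test, TMM scaling, filterByExpr with a minimum count of 10) in R 4.3.3, with Benjamini-Hochberg adjustment over all genes tested and a threshold of 0.05. Fold changes use TMM scaling and can therefore differ from ratios of CPM. Each of the 16 mutant comparisons used its own control of the same stage, organ and batch, with the 8 haploid libraries in one fit. Another 16 comparisons set control organs against each other within an age, and 3 tests asked whether a mutant effect differs among organs. The edgeR step was tested on simulated data.

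Alternatives were DESeq2 1.42.0, median-of-ratios size factors, keeping genes with low counts, a block for the replicate number, another set of libraries in the fit, a detection threshold of 0.5 CPM and leaving out each library. The precision is limited by depth (6.1 to 37.4 megareads per library) and by 2 to 4 libraries a group. Intervals of count ratios are 95% and cover counting error only. No 2 libraries of a group agreed within sampling noise (smallest chi-square per degree of freedom 3.54).

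Any of the 39 members could be named. Members called in a mutant comparison were named with all their values, apart from results that are not reported here, and each organ's 3 highest by RPKM. Other genes were named from fixed lists where called, at most 6 per list. Members and lists were chosen with earlier results of these data known.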

Additional observations from a re-analysis of the deposited data

Results flagged for a closer look

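Among the 2C embryos, 4 values stood apart from the rest of their group. In pWT replicate 4 Hoxa3 was at 5.78 CPM, where the other 3 libraries read 0 to 0.184. In pWT replicate 3 Hoxa6 was at 8.21 CPM and Hoxa10 at 5.79, and both were at 0 in the other 3 libraries. In pIR replicate 2 Hoxb13 was at 8.08 CPM and at 0 in the rest. In E18.5 batch 2 liver, pIR replicate 4 read 2.49 CPM of Hoxb3, where the others read 1.95 to 1.99. These are 5 of 30 gene and group pairs checked, all with a group mean of 1 CPM or more. The chance rate of the rule, about 1 in 20, assumes normally distributed values. It does not hold for a gene at or near 0 in all but 1 library, which enters only through its high value. The count of 5 is therefore no measure of an excess.

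The pIR effect differed among the 4 newborn organs for 4 members by edgeR's F test on the interaction terms, beside 25.3% of all genes called. Such calls were less frequent among the tested members than among all genes. The 4 calls were lost in 2 (Hoxb3), 3 (Hoxc5), 8 (Hoxa2) and 16 (Hoxd3) of 23 alternative settings. Hoxb3 had an adjusted p of 0.0155, with log2 effects from -0.41 in liver to 1.25 in heart. Hoxa2 had an adjusted p of 0.0308, with effects of 1.78 in heart, 0.82 in liver, -0.07 in kidney and -0.07 in lung. Hoxc5 had an adjusted p of 0.0226 and Hoxd3 0.0447. Outside kidney, where they were -0.27 and -0.76, these last 2 were too low to be tested within an organ. Hoxc5 had 0 reads in every pWT heart and liver library, against 1 and 5 in pIR heart and 1 and 2 in pIR liver.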

How the results depend on the processing

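No called gene named here turned sign under any alternative run (32 gene and comparison pairs). Of 45 pairs that were not called, 19 turned sign in 1 or more settings, such as Hoxb5 and Hoxd3 in E18.5 brain pTKO (log2 -1.80 to 9.63 and -0.76 to 5.46), Hoxb4 in P1 heart pIR (-0.31 to 0.74) and Hoxb8 in P1 kidney pIR (-0.35 to 0.29). Of counts of called members recomputed under other settings, 434 stayed within 1.5 times the main count and 57 moved further. A count of 0 that stayed at 0 is among the 434, so they include comparisons in which no member was ever called. Without the filter on low counts, E18.5 brain pTKO gave 9 called members and P1 heart pIR 1, against 0 in each. DESeq2 gave 6 in E18.5 kidney pTKO and 1 in P1 heart pIR, against 0 in each, and 9 between E18.5 brain and heart in pWT, against 5. With all P1 libraries in one fit, P1 heart pIR gave 4 (against 0) and P1 kidney pIR 0 (against 3). Between pWT organs, counting only members at 1 CPM or more in both, an alternative chosen after seeing the data, gave at P1 14 for kidney and lung (against 32), 5 for heart and kidney (33), 7 for kidney and liver (32), 7 for liver and lung (23), 4 for heart and lung (22) and 2 for heart and liver (13). At E18.5 it gave 5 for kidney and lung (25), 4 for kidney and liver (31), 4 for liver and lung (15), 3 for heart and kidney (31), brain and kidney (29), heart and lung (15) and brain and lung (17), and 0 for brain and heart (5), brain and liver (8) and heart and liver (4), because fewer members were counted. The 2C libraries had no other set of libraries for a fit.

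The replicate numbers did not settle pairing. In no mutant comparison with 3 or more pairs did every pair of same-numbered libraries deviate together. In TKO and WT cells 2 of 3 pairs correlated above 0.1. With 2 pairs, correlations were 0.18 and 0.24 for STOP and WT cells, 0.17 and 0.18 in P1 lung and 0.24 in E18.5 lung. Other mutant comparisons with 2 pairs ran from -0.29 to 0.06. Between E18.5 pWT organs it was 0.69 for kidney and liver, 0.57 for heart and kidney and 0.50 for heart and liver. Other E18.5 organ pairs ran from -0.25 to 0.03, and P1 organ pairs from -0.10 to 0.20. Organ tests took libraries as independent, and pairing by animal was not tested. With the replicate number as a block, E18.5 brain pTKO gave 2 called members and P1 lung pIR 1 (Hoxa4, log2 0.69), against 0 in each. The test across P1 organs then gave 0, against 4.

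Leaving out 1 library at a time gave 5 to 10 called members in TKO cells (main 8), 1 to 12 in STOP cells (8), 0 to 11 in E18.5 brain pTKO (0), 0 to 12 in kidney pTKO (0), 0 to 5 in lung pTKO (0), 0 to 2 in P1 heart pIR (0), 0 to 4 in P1 kidney pIR (3) and 0 to 6 in the test across P1 organs (4). Between E18.5 pWT organs it gave 2 to 9 for brain and heart (5), 4 to 11 for brain and liver (8) and 1 to 5 for heart and liver (4). Where 1 library remained in a group it was assumed to vary like the others. The cause of the other shifts was not tested. Genes at a few reads, such as Hoxd1 in the haploid cells and most members in embryos, are limited by depth.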
